A study of Homo sapiens with 24 samples.

Results

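The 10 genes described here, HSPA5, HSP90B1, CALR, CANX, P4HB, PDIA3, PDIA4, MANF, PRKCSH and XBP1, encode chaperones, folding enzymes and a transcription factor of the endoplasmic reticulum (ER) and its unfolded protein response. They were chosen by name from the 9792 genes with a window in any of the 6 deposited lists of binding windows. Earlier results of these data were known at that choice, so shares set beside all genes describe the members and test nothing. Every window assigned to one of the 10 genes by gene symbol was taken. The lists come from eCLIP, which crosslinks a protein to the RNA it touches, pulls the protein down with an antibody (the immunoprecipitate, IP) and compares the RNA fragments recovered with those of an input library. The cells were HEK293, a human embryonic kidney line. The 24 libraries form 12 groups of 2, an IP and an input group for each of 6 experiments: SNRNP200 in the cytoplasmic fraction of cells given 500 µM arsenic, SNRNP200 in the cytoplasmic fraction of untreated cells, SNRNP200 in arsenic-treated whole cells, SNRNP200 in untreated whole cells, CAPRIN in untreated cells, and G3BP1 in untreated cells. No arsenic-treated CAPRIN or G3BP1 sample was analysed here, and the labels give no duration for the arsenic. Nothing in the labels ties the 2 replicates to separate cultures, so p-values measure the spread between libraries, which may be technical.

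The 10 genes held 61 of 6773 windows in the arsenic cytoplasm, 10 of 4182 in the untreated cytoplasm, 203 of 117690 in arsenic whole cells, 308 of 182066 in untreated whole cells, 22 of 15831 for CAPRIN and 9 of 3023 for G3BP1. A window is a stretch of at most 100 bases that passed the authors' call of reproducible enrichment (q under 0.2 throughout). A window that is not listed may lack binding or reads, and these cannot be told apart, because the lists hold only windows that passed. Fewer transcripts and less binding per transcript cannot be told apart either where only IP reads are compared. Listed windows mark binding and not RNA amount, so they cannot check how pure the fractions were. The cytoplasmic RNA NORAD held 20 windows with arsenic and 28 without in the cytoplasm. It held none in whole cells, although these contain the cytoplasm. The nuclear RNA MALAT1 held none in either cytoplasmic list and 2 in each whole-cell list. For CAPRIN and G3BP1, NORAD held 1 and 21 windows and MALAT1 held 11 and 0. The nuclear RNAs NEAT1 and KCNQ1OT1 had no window in any list.

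One property of the files bears on every cytoplasmic arsenic value. In the 882 windows that the 2 arsenic lists share, the input count of the cytoplasmic list was the same number as that of the whole-cell list in 769 windows (87.2%), and in the other 113 it differed by at most 9 reads. The input counts thus differed by less than sampling noise between separate libraries allows (chi-square 8.21 on 881 degrees of freedom), while the IP counts of the same windows were the same number in 7. In the untreated pair of lists, 11 of 651 shared windows (1.69%) had the same input count. The 2 arsenic inputs are therefore read here as 1 set of libraries, although the labels name separate ones. Which fraction it came from cannot be told from the lists. The limma tests that set arsenic cytoplasm against arsenic whole cells took the 2 groups as independent, so their p-values do not allow for a shared input. Across the 189 windows that the arsenic cytoplasmic list shares with both untreated lists, its input counts had a Spearman correlation of 0.684 with the untreated cytoplasmic input and 0.783 with the untreated whole-cell input, given as a description only. Cytoplasmic comparisons of arsenic with untreated cells therefore differ in their input libraries as well, and IP reads alone are given beside the enrichment below.

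Proteins that enter the secretory pathway fold in the ER. HSPA5 (BiP) and HSP90B1 (GRP94) are its chaperones of the heat shock protein families, CALR and CANX are lectins that hold glycoproteins trimmed by glucosidase II, of which PRKCSH is the regulatory subunit, and P4HB, PDIA3 and PDIA4 are protein disulfide isomerases. Unfolded protein in the ER activates sensors, one of which, IRE1, removes an intron from XBP1 mRNA in the cytoplasm so that an active transcription factor is made; XBP1 and ATF6 then raise transcription of chaperone genes, MANF among them, through ER stress response elements such as ERSE. SNRNP200 (Brr2) is the helicase of the U5 small nuclear ribonucleoprotein that unwinds U4 from U6 RNA when the spliceosome is activated, and CAPRIN and G3BP1 are RNA-binding proteins of stress granules. Arsenite is a standard inducer of stress granules.

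The shared ERSE marks which of the 10 genes carry the sequence through which the response is known to act. RefSeq promoter sequence (GRCh38.p14, 250 bases before to 50 after a transcript start) was at hand for 9 of the 10. The motif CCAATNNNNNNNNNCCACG, searched on both strands, was found in 5 of the 9, against 25 of 27305 genes with a promoter (0.0916%). The related element ERSE-II, likewise searched on both strands, was found in none of the 9 and in 19 genes (0.0696%). ERSE is already known as an element of chaperone genes of this response, and the 10 genes were chosen by name as genes of that kind. A higher share of ERSE among them than among all genes was thus built into the choice. The contrast cannot test whether the members are enriched for it, and the matches only show where the letters lie. The CANX match lies 133 bases before a transcript start at 179698929, which is not the outermost RefSeq start of the gene, at 179678656. In HSPA5, for example, the match ends 48 bases before the start. The matches follow 5′ to 3′ as read on the motif's own strand, with the fixed letters in capitals.
HSPA5, chr9:125241391-125241409: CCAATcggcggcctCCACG
HSP90B1, chr12:103930216-103930234: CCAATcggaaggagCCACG
HSP90B1, on the strand opposite the gene, chr12:103930321-103930339: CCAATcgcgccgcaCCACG
CALR, on the strand opposite the gene, chr19:12938384-12938402: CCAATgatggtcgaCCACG
CANX, chr5:179698778-179698796: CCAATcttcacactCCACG
XBP1, chr22:28800603-28800621: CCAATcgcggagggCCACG
A match is a description of letters, and nothing follows from its absence in P4HB, PDIA4, MANF and PRKCSH.

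**Figure D1:**
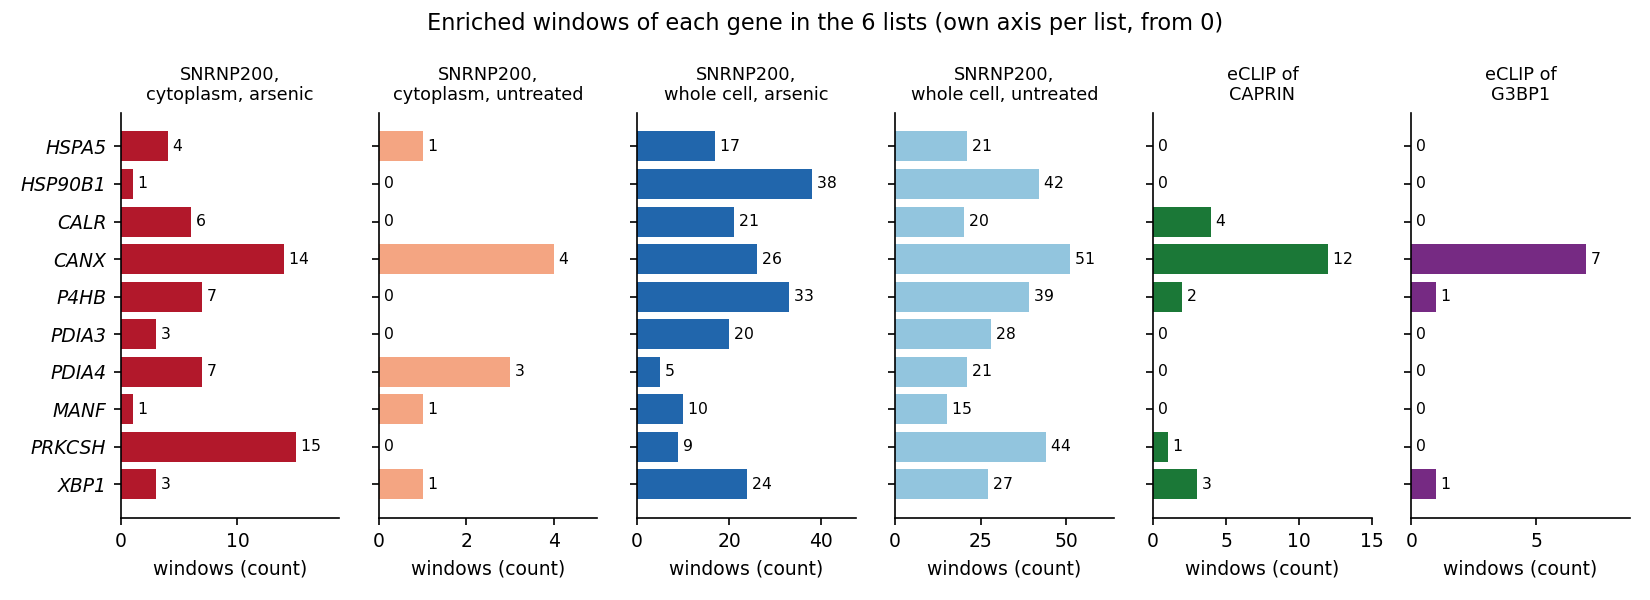
Number of listed windows of each of the 10 genes in each list, with a separate horizontal axis from 0 per list. All 10 genes are listed in the arsenic cytoplasm and 5 in the untreated cytoplasm, PRKCSH has 15 and 0 windows there, and CANX holds most of the CAPRIN and G3BP1 windows.

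All 10 genes had a window in the arsenic cytoplasm, 5 in the untreated cytoplasm, all 10 in both whole-cell lists, 5 in the CAPRIN list and 3 in the G3BP1 list. Of all 9792 genes, 25.2% were in the arsenic cytoplasmic list, 18.6% in the untreated cytoplasmic list, 83.8% in the arsenic whole-cell list, 92.4% in the untreated whole-cell list, 44.6% in the CAPRIN list and 12.6% in the G3BP1 list. The 5 genes with a cytoplasmic window only after arsenic were HSP90B1, CALR, P4HB, PDIA3 and PRKCSH, and no member was listed only in untreated cytoplasm. Among all genes in either cytoplasmic list, 42.9% were in the arsenic list only and 22.3% in the untreated list only. Because the members were chosen with earlier results known, these shares are a description and not a test. The members' windows in the arsenic cytoplasm had a median of 18 input reads, against 14 over all windows of that list.

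In the arsenic cytoplasm, most windows were annotated as coding sequence or UTR. Coding sequence held 24 of the 61 windows (39.3%), the 3′ UTR 20 (32.8%), the 5′ UTR 13 (21.3%) and the stop codon 2, and introns held 2, both in PRKCSH. Over all windows of that list, 25.1% were coding, 45.5% 3′ UTR and 17.5% 5′ UTR. Introns held 0.546% of all its windows, against 3.28% of the member windows. In the untreated cytoplasm, 9 of the 10 member windows were in a 3′ UTR and the other was coding, where 67.6% of all windows of that list were 3′ UTR and 20.3% coding. With the counts so small in untreated cytoplasm, no test of the difference in feature types was made.

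**Figure D2:**
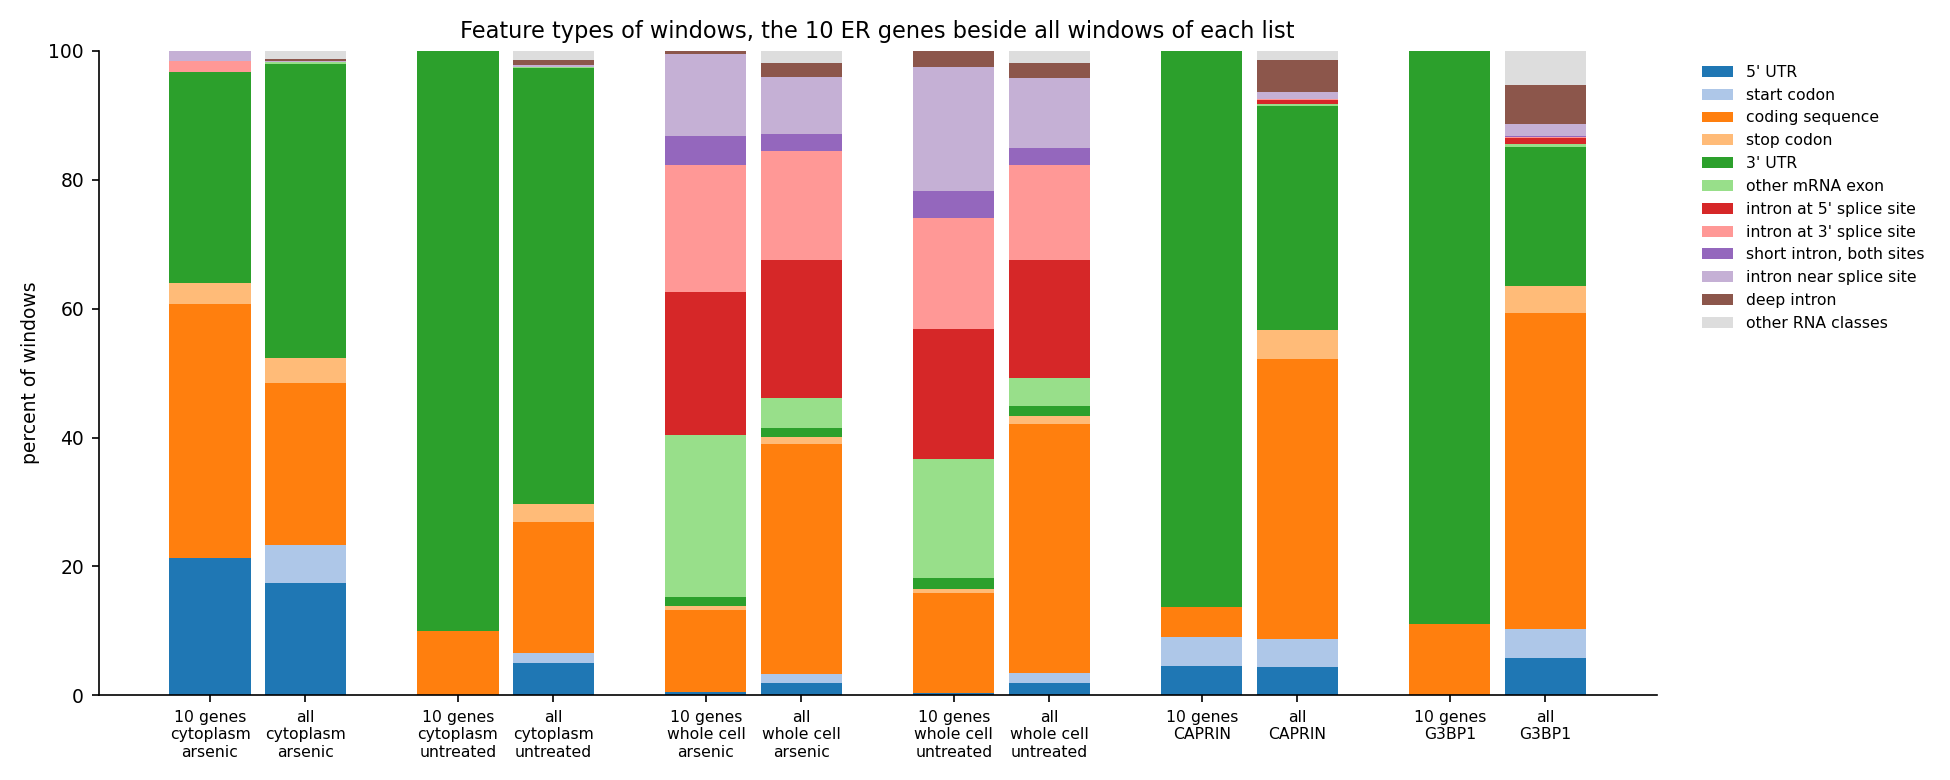
Share of windows by annotated feature (percent, stacked to 100) for the 10 genes and for all windows in each list. The 10 genes have 21.3% of their windows in 5′ UTRs in the arsenic cytoplasm and 86.4% and 88.9% in 3′ UTRs for CAPRIN and G3BP1, and exons annotated neither as coding nor as UTR take 25.1% of their windows in arsenic whole cells, against 4.68% of all.

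A 5′ UTR window was listed in the arsenic cytoplasm for 8 of the 10 genes, all but MANF and XBP1, and for none in the untreated cytoplasm. Of the genes in the arsenic cytoplasmic list, 34.2% had a 5′ UTR window, and of those in the untreated cytoplasmic list 8.25%. HSPA5 had the most IP reads there, with 155, 143 and 41 in 3 adjoining windows on 26, 34 and 12 input reads, and the window with 155 reads had a log2 enrichment of 3.74 in the lower and 4.67 in the higher replicate. In CANX the 5′ UTR windows held 120 and 37 IP reads on 51 and 18 input reads. P4HB had 117 and 28 IP reads there on 28 and 7 input reads. The single 5′ UTR windows of CALR, HSP90B1, PRKCSH and PDIA3 had 72, 69, 52 and 31 IP reads. PDIA4 had 44 and 43 IP reads in its pair on 3 and 9 input reads, and the first of these had the largest enrichment of the 13 (4.36 and 5.69 in the replicates). The median log2 enrichment of the 13 windows was 3.43, against 3.66 over the 1184 5′ UTR windows of the list, slightly below it. The median input was 20 reads in the 13 windows and 11 in all 1184, and the median GC fraction was 0.732 and 0.706. Whether input depth or GC content bears on which 5′ UTRs were listed was not tested.

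These 5′ UTR windows begin at or run across the annotated start of the transcript in several genes. The first 30 bases from a RefSeq transcript start (GRCh38.p14), each lying whole inside listed windows of the arsenic cytoplasm, are shown because they are the RNA that the windows cover, with C and G in capitals. Their GC content ran from 60% in HSPA5 to 83.3% in P4HB. In PDIA4 the start shown, at 149028490, is not the outermost RefSeq start, at 149028505. Further starts of CANX and PRKCSH that meet the same rule are not shown.
HSPA5, chr9:125241314-125241343, minus strand: GaCGCCGGCCaaGaCaGCaCaGaCaGattG
CALR, chr19:12938609-12938638, plus strand: GtCCGtaCtGCaGaGCCGCtGCCGGaGGGt
P4HB, chr17:81860506-81860535, minus strand: GCtCtCGtCGCCCCCGCtGtCCCGGCGGCG
PDIA4, chr7:149028461-149028490, minus strand: GaCGGGCtGtCGGCCaGaCCCCGaGttCtC
PRKCSH, chr19:11435635-11435664, plus strand: CtttCtGCaGCaGGaaCCGCGGCtGCtGGa

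MANF, a secreted ER-resident protein that rises in ER stress, had a single cytoplasmic window, the same one with and without arsenic, in its 3′ UTR at chr3:51389167-51389243. Its log2 enrichment was 6.46 and 8.39 in the arsenic replicates, against 1.47 and 2.03 in the untreated replicates, so the replicate values did not overlap. It had 159 IP and 9 input reads with arsenic and 66 IP and 23 input reads without. The difference was 5.67 ± 1.19 (SE), the highest of the 669 windows tested, 1 per gene, and it did not pass limma's test (adjusted p = 0.13). Over all 1065 windows in both cytoplasmic lists the largest difference was 5.70. The cytoplasmic lists differed in scale: the median difference over the 669 windows was 2.02, and MANF stood 3.66 above it. Taken as IP reads alone, relative to the 1065 windows that both cytoplasmic lists hold, MANF was 2.57-fold higher with arsenic (95% interval 1.92 to 3.48, counting error only). Relative to the IP reads of all windows of each list, a scaling added after the data were seen, it was 1.27-fold higher, so the size of the difference depends on the scaling. On the scale of the shared windows, its input reads with arsenic were 0.193 of untreated (0.0787 to 0.434). The adjusted p of MANF was 0.0385 when limma let the variance depend on mean enrichment. It was 0.00343 when the shared windows of each gene were averaged. MANF has only 1 shared window, so averaging left its own values and its difference of 5.67 unchanged. That lower p is therefore no further evidence from MANF itself. With every shared window tested on its own the adjusted p was 0.0555, and with the median difference removed 0.984. Leaving out a replicate value gave differences from 4.71 to 6.64.

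CANX was the other gene with a window that both cytoplasmic lists share. The window tested lies in its 3′ UTR at chr5:179729444-179729543, with log2 enrichment of 3.97 and 5.07 with arsenic, against 1.39 and 1.54 without. The replicate values did not overlap, the difference was 3.05 ± 1.15 (SE), and limma gave an adjusted p of 0.142. Its reads were 65 IP and 38 input with arsenic and 104 IP and 41 input without, so the ratio of IP to input reads was lower with arsenic while the deposited enrichment was higher. The lists carry their own scale: at equal enrichment a read of IP stood beside 9.06 reads of input in the arsenic cytoplasm and 1.01 in the untreated cytoplasm. All 3 shared CANX windows had replicate values apart and higher with arsenic, as did 71.4% of all 1065 shared cytoplasmic windows. In IP reads alone, relative to all shared windows, the 3 together were 0.855 of untreated (95% interval 0.691 to 1.06), and relative to all windows of each list 0.423. Across the 669 windows limma called none in the cytoplasm, with 196 at an unadjusted p under 0.05, and an exact permutation test of 2 against 2 could not go below 0.333.

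In the arsenic cytoplasm IP reads were fewer than input reads in 9 of the members' 61 windows and in 14.4% of all windows of the list. In CANX, for example, the 3′ UTR window at chr5:179729244-179729343 had 151 IP and 250 input reads and a deposited mean enrichment of 3.99. None of the member windows in the untreated cytoplasm or in whole cells had fewer IP than input reads.

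PRKCSH and CANX had the most cytoplasmic windows with arsenic. PRKCSH had 15 with arsenic and none without. They ran from the 5′ UTR to the 3′ UTR, 8 of them coding, with 16 to 52 IP reads each. CANX had 14 and 4, with 10 of the 14 in the 3′ UTR. CALR had 6 and none, and its 3′ UTR window at chr19:12944298-12944393 had 155 IP and 18 input reads, while the one at chr19:12944010-12944105 had its largest enrichment, 6.13 and 6.22 in the replicates, on 27 IP and 2 input reads.

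Among the disulfide isomerases, P4HB had 7 windows with arsenic and none without, and PDIA3 had 3 and none. PDIA4 had 7 and 3, at different places of the mRNA: its arsenic windows were 5 coding and 2 in the 5′ UTR, and its untreated windows were 3 adjoining ones in the 3′ UTR with 19, 24 and 37 IP reads on 0, 4 and 6 input reads. HSPA5 had 4 windows with arsenic, 3 in the 5′ UTR, and 1 coding window without, at chr9:125237062-125237154 with 16 IP and 2 input reads. HSP90B1 had the 5′ UTR window alone with arsenic and none without.

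XBP1 had 3 windows in the arsenic cytoplasm and 1 in the untreated cytoplasm, and none was shared. Its arsenic windows were 2 coding and 1 in the 3′ UTR, with 26, 20 and 8 IP reads. The untreated window was at chr22:28794555-28794642, in the 3′ UTR, with 15 IP reads and no input read. CAPRIN had the same 3′ UTR window, with 12 IP reads and no input read.

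Per 100 bases of listed window, IP reads in the arsenic cytoplasm ran from 206 in MANF, 130 in HSP90B1 and 119 in HSPA5 to 36.6 in PRKCSH and 22.2 in XBP1. These are sums over the replicates within 1 list, so they carry no replicate spread, and they describe listed windows and not whole mRNAs.

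In whole cells, SNRNP200 windows lay at the splice sites of all 10 genes. Introns held 121 of the 203 arsenic windows (59.6%) and 195 of the 308 untreated windows (63.3%), against 51.9% and 49.0% of all windows of the lists. Windows at a splice site made up 46.3% with arsenic and 41.6% without, against 41.0% and 35.7% of all. Coding windows were 12.8% with arsenic and 15.6% without, against 35.7% and 38.7% of all. Both shares differed under a minimum of 20 IP and 10 input reads per window. Splice-site introns were then 15.2% with arsenic and 14.1% without, against 15.3% and 14.01% of all. Coding windows were 45.5% and 53.1%, against 50.4% and 52.1% of all. The median input over all windows was 3 reads in each of the 2 lists, so that minimum keeps only a minor part of the windows. What lies behind the change in shares was not tested. Exons that are annotated neither as coding nor as UTR took 25.1% and 18.5% of member windows, against 4.68% and 4.26% of all, and in HSP90B1 they were 22 of 38 windows with arsenic and 25 of 42 without. How the annotation assigns exons bears on this split, and its part was not tested.

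The strongest whole-cell windows of HSP90B1 were an exon window with arsenic (5.89 and 7.91 in the replicates, 152 IP reads and 1 input read) and a short intron without (6.69 and 6.89, 98 IP reads and 1 input read). In HSPA5 they were introns in both lists, at 5.10 and 6.61 with arsenic and 5.33 and 5.63 without. XBP1 had the same intron window on top in both, at chr22:28799154-28799253, with 136 IP and 9 input reads at 4.65 and 5.40 with arsenic, against 113 IP and 4 input reads at 5.04 and 6.84 without.

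**Figure D3:**
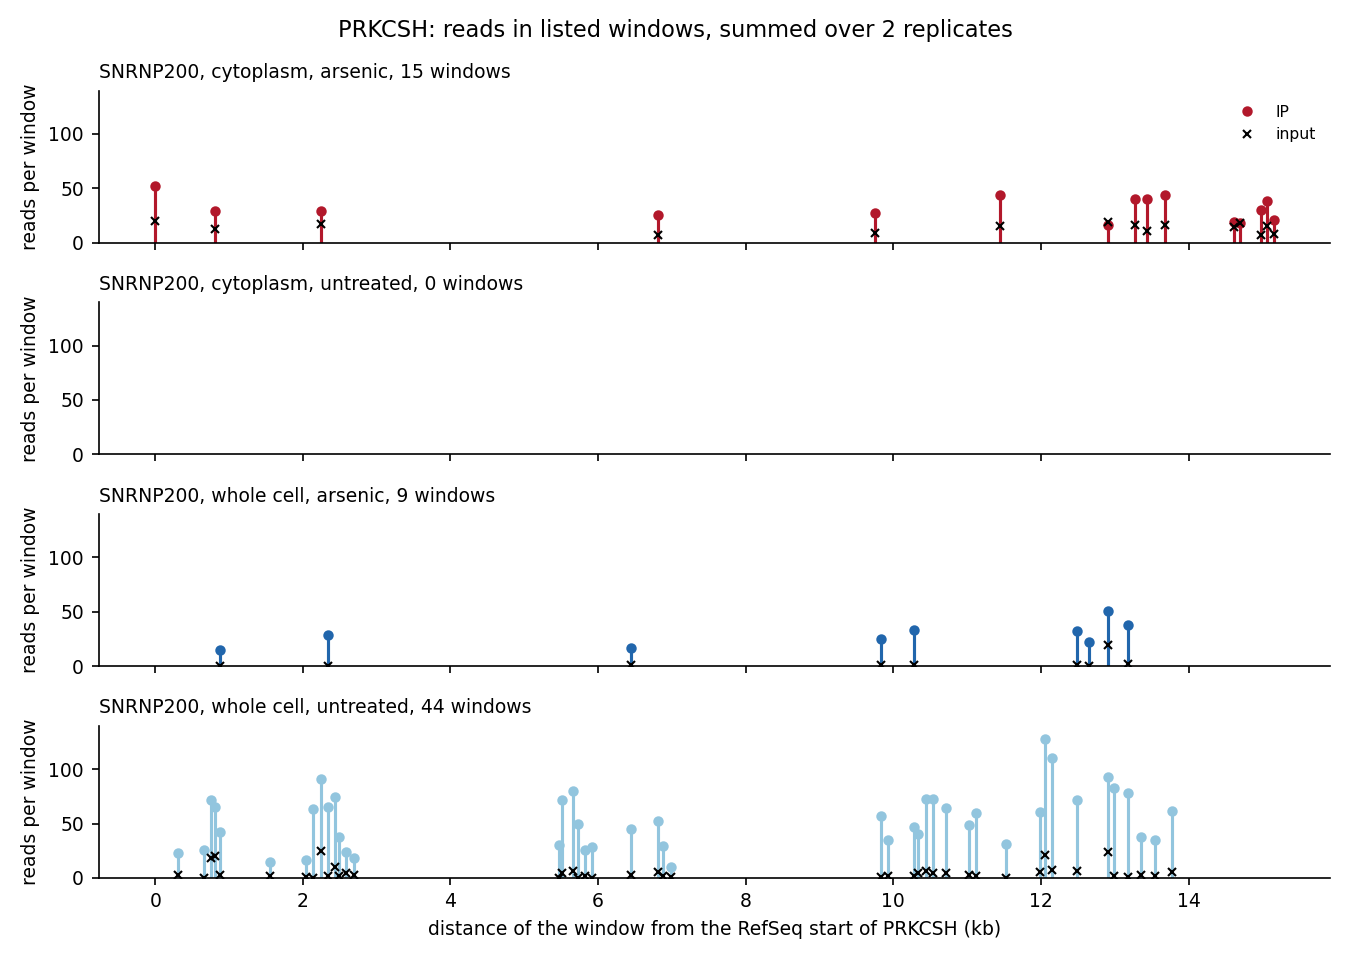
PRKCSH, IP reads (points on lines) and input reads (crosses) of each listed window, summed over replicates, against distance from the RefSeq gene start in kb, for the 4 SNRNP200 lists. There are 15 windows in the arsenic cytoplasm, none in the untreated cytoplasm, 9 in arsenic whole cells and 44 in untreated whole cells.

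PRKCSH and PDIA4 had far fewer whole-cell windows with arsenic than without. PRKCSH had 9 windows with arsenic and 44 without, a ratio of 0.205, and PDIA4 had 5 and 21, a ratio of 0.238. The median ratio over 5170 genes with at least 10 untreated windows was 0.619, and a ratio as low as that of PRKCSH or lower was seen in 6.71% of them, as low as that of PDIA4 in 8.65%. CANX followed at 0.51, with 26 and 51 windows. The other genes had ratios between 0.667 in MANF and 1.05 in CALR, which had 21 windows with arsenic and 20 without. The untreated list is longer, 182066 windows against 117690 with arsenic, and the ratios are counts without replicates. In PRKCSH the counts were lower with arsenic in every large class: 2 windows with arsenic and 13 without in introns near a splice site, 2 and 8 at 5′ splice sites, 2 and 7 at 3′ splice sites, and 1 and 8 in coding sequence.

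IP reads were also compared in the windows that both whole-cell lists hold. Relative to all 91143 shared windows, IP reads with arsenic were 0.495 of untreated in the 5 shared windows of PDIA4 (95% interval 0.377 to 0.646), 0.52 in the 8 of PRKCSH (0.444 to 0.607), 0.66 in the 25 of CANX (0.605 to 0.719) and 0.683 in the 10 of MANF (0.589 to 0.792). In CALR they were 1.49-fold higher (1.39 to 1.61) and in XBP1 1.20-fold (1.11 to 1.29). HSPA5 (1.05), HSP90B1 (1.05) and P4HB (0.956) had intervals that included 1, and PDIA3 was at 0.873 (0.773 to 0.986). Relative to the IP reads of all windows of each list, PDIA4, PRKCSH, CANX and MANF stood at 0.667, 0.699, 0.887 and 0.919, and CALR and XBP1 at 2.01 and 1.62. On that scale HSPA5, HSP90B1, P4HB and PDIA3 were above 1, at 1.41, 1.41, 1.29 and 1.17, so the directions of P4HB and PDIA3 turned. The input reads moved with some of these: PDIA4 stood at 0.257 (0.0868 to 0.635), CANX at 0.588 (0.47 to 0.732), PRKCSH at 0.688 (0.402 to 1.16) and CALR at 1.11 (0.869 to 1.41). These intervals cover counting error only, since reads are summed over replicates, so no test over replicates can be made on them.

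**Figure D4:**
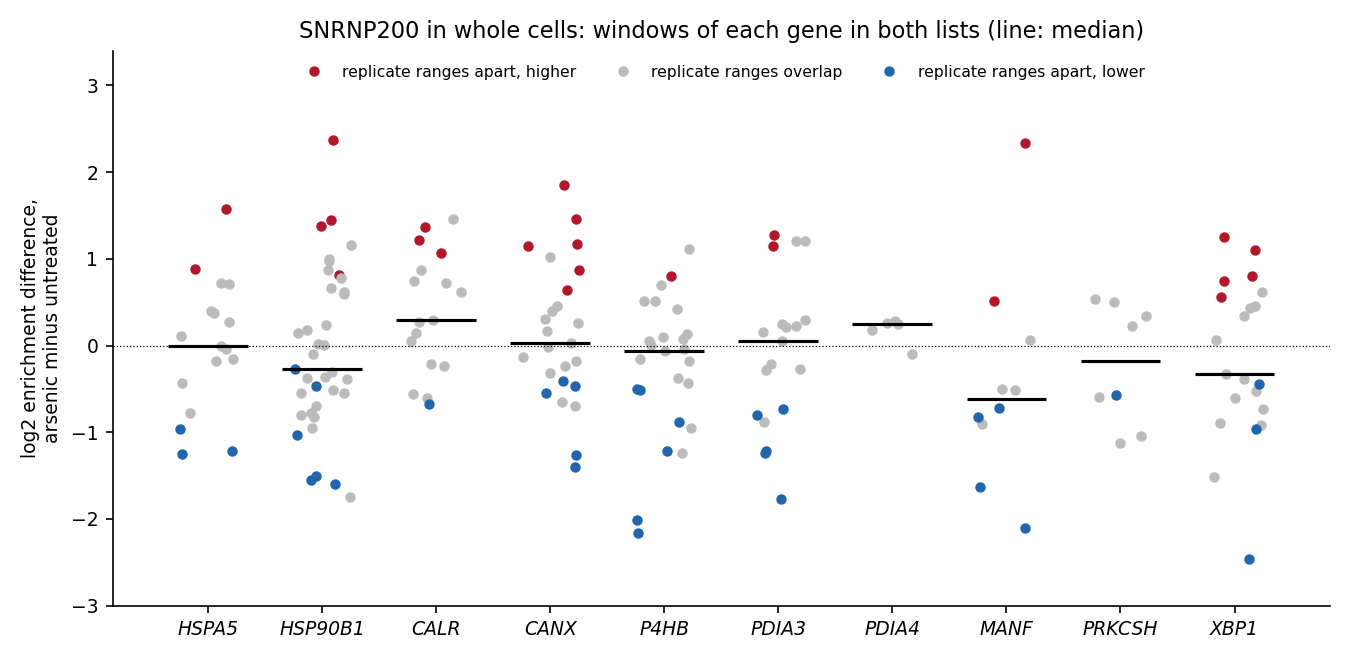
Difference in log2 enrichment of SNRNP200 in whole cells, arsenic minus untreated, for each window of the 10 genes in both lists, with the median as a line and colours for whether the 2 replicate values of arsenic lie above, among or below those of untreated cells. Of 184 windows, 25 are apart and higher and 34 apart and lower, and the medians lie between -0.62 in MANF and 0.30 in CALR.

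Enrichment over input, in contrast to the number of windows, was on both sides of 0 within most genes. The 184 shared windows of the 10 genes had a median difference of -0.001, arsenic minus untreated, with 92 higher and 92 lower, and over all shared windows the median was -0.007. Replicate values were apart and higher in 25 of the 184 and apart and lower in 34, where 15.6% and 16.9% of all 91143 shared windows were. In MANF, for example, the 5′ splice site window at chr3:51385437-51385536 had 3.07 and 5.81 with arsenic, against 3.37 and 5.38 without, and these overlapped. HSP90B1 had 5.89 and 7.91 with arsenic, against 5.43 and 5.62 without, in its exon window at chr12:103941753-103941831, the largest member difference tested in whole cells (1.38 ± 0.92 SE, limma adjusted p = 0.99), and with the mean over the gene's windows its difference was -0.057. PDIA3 had 3.80 and 5.43 with arsenic, against 3.17 and 3.53 without, at a 5′ splice site (1.27 ± 0.89 SE, adjusted p = 0.99), but -0.073 with the mean over its windows and -0.80 with at least 20 IP and 10 input reads. PRKCSH had 1.95 and 2.02 with arsenic, against 2.49 and 2.61 without, in a coding window (-0.57 ± 0.84 SE, adjusted p = 0.99), but 0.50 where only windows with a lowest q under 0.05 were kept. Limma called none of 7408 genes in whole cells, with 284 at an unadjusted p under 0.05, and adjusted p ran from 0.99 to 0.996 over the 10 members.

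Of the 61 windows in the arsenic cytoplasm, 15 (24.6%) were also in a whole-cell list and 4 in the untreated cytoplasm, and of the 10 in the untreated cytoplasm 1 (10.0%) was in a whole-cell list. Over all windows of the 2 cytoplasmic lists, 23.2% with arsenic and 17.7% without were in a whole-cell list, so the members' share with arsenic was near that of the list. Of those 15, 6 were in the arsenic whole-cell list and 14 in the untreated one. For the 6 the input count was the same number in both arsenic lists (101 reads in all), and the IP reads were 141 in cytoplasm and 451 in whole cells. In the 1 window tested per gene, differences of cytoplasm minus whole cell in enrichment were 1.19 in CALR, 1.10 in PRKCSH, 0.86 in CANX and 0.73 in P4HB. The median over the 527 windows tested was 1.31, so after that median was removed these 4 were below 0. CALR also had 2 shared windows that were not tested. Its 3′ UTR window at chr19:12944010-12944105 had a difference of 3.07, on 2 input reads in each list. The replicates there were 6.13 and 6.22 in cytoplasm, against 3.04 and 3.17 in whole cells. Its coding window at chr19:12943537-12943629 had a difference of 0.90. Over all 882 shared windows the median was 1.36. None of the 4 tested windows passed limma's test (adjusted p 0.395, 0.395, 0.513 and 0.599), and none of the 527 did, with 94 at an unadjusted p under 0.05. That test took the 2 groups as independent and does not allow for a shared input. In untreated cells the coding window of HSPA5 was the only member window in both fractions, at 2.53 and 2.84 in cytoplasm, against 2.19 and 3.66 in whole cells, which overlap (difference -0.24 ± 0.65 SE, limma adjusted p = 0.869, with none of 390 called and 65 at an unadjusted p under 0.05). No single window of a member was in all 4 SNRNP200 lists, so the arsenic effect could not be compared between fractions for any of them. Limma called none of the 68 windows that allowed it, with 21 at an unadjusted p under 0.05.

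CAPRIN and G3BP1 windows of these genes were in 3′ UTRs, mainly that of CANX. CAPRIN had 12 windows in CANX, 4 in CALR, 3 in XBP1, 2 in P4HB and 1 in PRKCSH, and 19 of these 22 (86.4%) were in a 3′ UTR, where 34.8% of all CAPRIN windows were. G3BP1 had 7 in CANX and 1 each in P4HB and XBP1, and 8 of the 9 (88.9%) were in a 3′ UTR, against 21.6% of all G3BP1 windows. HSPA5, HSP90B1, PDIA3, PDIA4 and MANF had no window for either protein. Each list is from untreated cells, and 12 of 22 and 7 of 9 windows being in 1 mRNA means that the share describes CANX more than the other genes.

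**Figure D5:**
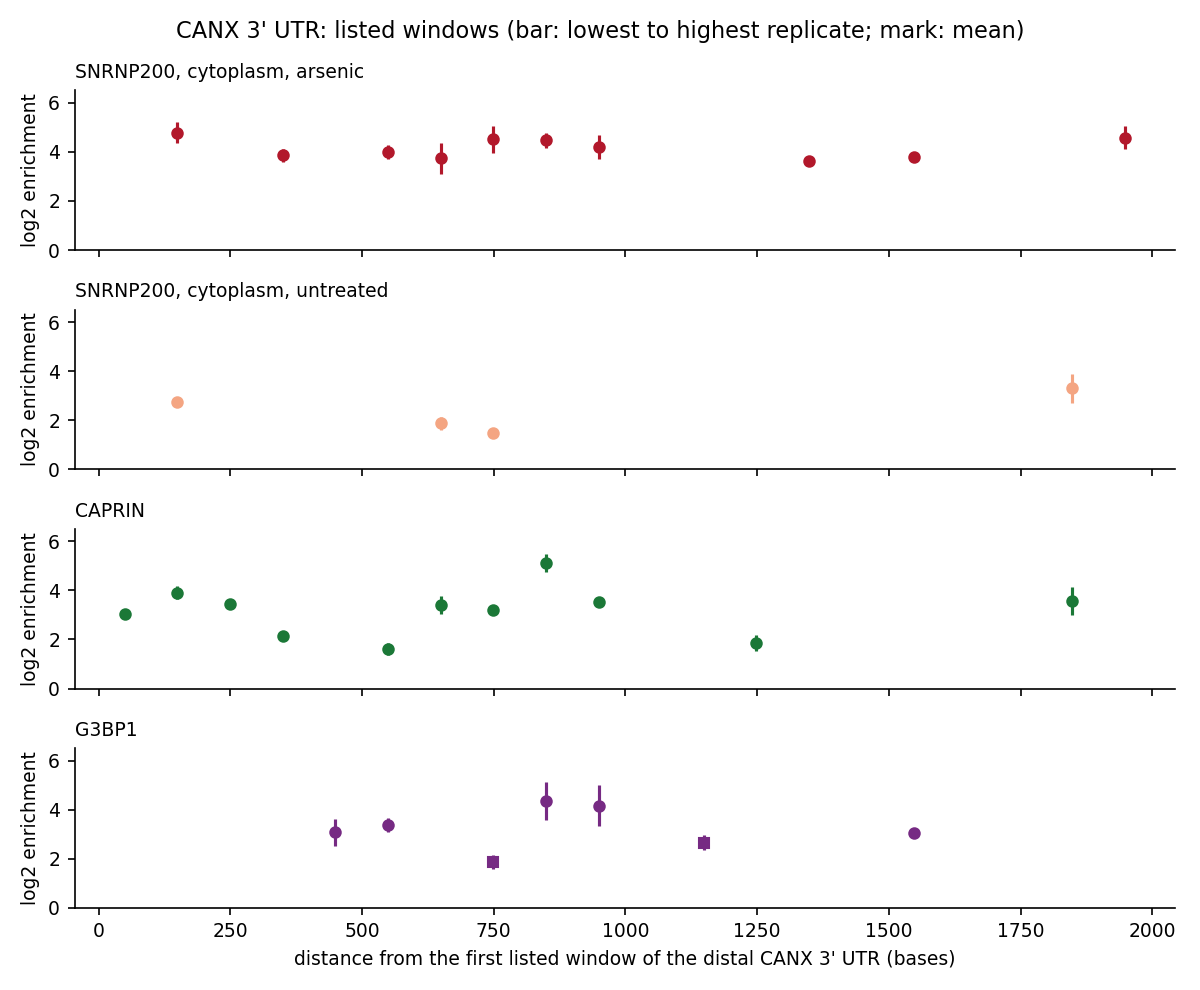
Log2 enrichment of each listed window along the distal CANX 3′ UTR, against distance in bases from its first listed window, for SNRNP200 in arsenic and untreated cytoplasm, CAPRIN and G3BP1. Bars join the lowest and the highest replicate and marks give the mean, squares are windows of the second set of the G3BP1 list, and the window at chr5:179729444-179729543 is present in all 4 panels.

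CAPRIN and G3BP1 windows were looked up in the SNRNP200 lists. Of the 22 CAPRIN windows, 13 were in the arsenic cytoplasmic list, 5 in the untreated cytoplasmic list and 2 in a whole-cell list. Of the 9 G3BP1 windows, 6 were in the arsenic cytoplasmic list, 1 in the untreated cytoplasmic list and none in a whole-cell list. Of all 15831 CAPRIN windows, 2399 (15.2%) were in the arsenic cytoplasmic list, and of all 3023 G3BP1 windows 751 (24.8%). As a share of the 61 arsenic cytoplasmic windows of the 10 genes, 13 (21.3%) were in the CAPRIN list and 6 (9.84%) in the G3BP1 list, where 35.4% and 11.1% of all 6773 windows were. The member windows are few and mostly in 1 mRNA, and no test of these shares was made. The CANX window at chr5:179729444-179729543 was in 4 lists, with a mean enrichment of 4.52 in the arsenic cytoplasm, 1.46 in the untreated cytoplasm, 3.20 for CAPRIN and 1.87 for G3BP1. The coding window of XBP1 at chr22:28800361-28800424 was in the arsenic cytoplasm (26 IP and 9 input reads), CAPRIN (22 and 0) and G3BP1 (19 and 6). Both G3BP1 values come from the second set of entries in that list, which counts 654 windows as enriched in 3 replicates although the labels give 2. These member windows are counted as enriched in 2. The lists were scaled one by one, so their enrichments are set side by side and not ranked.

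CAPRIN and G3BP1 could be compared in 3 CANX windows. In the tested one, chr5:179729244-179729343, CAPRIN had 1.35 and 1.85, against 3.07 and 3.68 for G3BP1, and the values did not overlap; over all 551 shared windows, 41.2% were apart and lower for CAPRIN and 25.6% apart and higher. The difference was -1.77 ± 0.54 (SE, limma adjusted p = 0.0406), where limma called 41 of 367 windows higher (11.2%) and 70 lower (19.1%). The call was lost with the median difference of -0.47 removed (-1.31, adjusted p = 0.117), with the mean over the 3 CANX windows (-0.55, adjusted p = 0.539), and when a single replicate value was left out in 3 of 4 ways, with adjusted p from 0.0737 to 0.336 in those. At the neighbouring window chr5:179729544-179729643, CAPRIN had 4.74 and 5.49, against 3.56 and 5.15 for G3BP1, and these overlapped.

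Other genes of ER protein handling were counted in 4 lists of 142 genes in all, of which 138 had a window in any experiment. Of the 39 listed genes for ER folding, 21 had a window in the arsenic cytoplasm and 11 in the untreated cytoplasm, 12 with arsenic only and 2 without only. GANAB, the catalytic subunit of glucosidase II and so the partner of PRKCSH, had 19 windows with arsenic and 3 without. In whole cells GANAB had 46 and 72. MLEC, a lectin of the ER, followed with 8 in the arsenic cytoplasm, and SERPINH1, the collagen chaperone, with 5. Of 41 genes for translocation and glycosylation, 26 had a window with arsenic and 5 without, 22 of them with arsenic only and 1 without only, led by MAGT1 and SEC61A1 (12 windows each with arsenic) and KDELR1 (9). Of 29 genes for ER-associated degradation, 12 were listed with arsenic and 6 without, 9 with arsenic only and 3 without only. They were led by TMUB1 and VCP (4 windows each with arsenic) and MARCHF6 (3). VCP, the ATPase that extracts proteins from the ER membrane, had 7 windows without arsenic, and MARCHF6 had 3. Of the 29 genes of the signalling branches, 5 were listed with arsenic and 8 without, none with arsenic only and 3 without only. For comparison, 25.2% and 18.6% of all genes were listed with and without arsenic. Of all genes in either cytoplasmic list, 42.9% were listed with arsenic only and 22.3% without only. Differences between the pathway lists were not tested. Among the signalling genes, CREB3L2, a transcription factor of the ER membrane, had 7 windows with arsenic. ATF4, the factor of the PERK branch, had 4 with arsenic and 5 without, and BAX had 2 and 3. A 5′ UTR window was present in the arsenic cytoplasm for 9 of the 21 folding genes listed there, 6 of the 26 translocation genes, 3 of the 12 degradation genes and 2 of the 5 signalling genes. In the untreated cytoplasm it was present for 1 signalling gene and none of the other 3 lists. Of all genes in the arsenic and the untreated cytoplasmic list, 34.2% and 8.25% had such a window. These counts compare deposited lists, with no replicate error.

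The genes whose numbers of windows over the 6 lists were most like the median of the 10 genes were RP11-112B10.2, the readthrough transcript RPL36A-HNRNPH2 and HMGN1, a nucleosome-binding protein. Their distances on the log2(windows + 1) scale over 6 lists were 0.759, 0.779 and 0.800. HMGN1 had 4 windows in the arsenic cytoplasm, 1 in the untreated cytoplasm, 25 in arsenic whole cells, 29 in untreated whole cells, 1 for CAPRIN and none for G3BP1.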

How the data were processed

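The 6 lists carry no header, and their columns were read from their values. The authors deposited read counts of input and IP per window, summed over replicates, with log2 enrichment for the lowest, mean and highest replicate, p-values and q-values, and the GC fraction of each window. Per the submitters' processing notes, fastp 0.11.5, STAR 2.7.6 and hg38 were used; for the window caller, the sources used here name none. Library totals were not used, so depth is unknown, and intervals cover counting error only. Arsenic was taken from the treatment characteristic, because the treatment protocol names it for all samples. The G3BP1 list has 3242 entries in 2 sets, 654 of its windows are counted as enriched in 3 replicates although the labels give 2, and 3 member windows are in the same second set (2 of CANX, 1 of XBP1). The first set was used for differences, and its 2 empty lines were dropped.

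Differences were tested with limma 3.58.1 in R 4.3.3 (unpaired, not centred, two-sided, Benjamini-Hochberg over all genes tested, threshold 0.05) on the 2 replicate values of 1 window per gene, the shared window with most IP reads, and the script was tested on simulated data. Intervals of read ratios are exact, at 95%. All 10 genes are named, with the 3 genes of most arsenic cytoplasmic windows per pathway list and the 3 nearest genes. Other pathway genes appear as counts. Members and lists were chosen with earlier results of these data known. Alternatives were stricter q, a minimum of 20 IP and 10 input reads, removal of the median difference, every window or a gene's mean, a variance trend, lists of equal length, each replicate value left out and, added after the data were seen, IP reads scaled to all windows of each list.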

Additional observations from a re-analysis of the deposited data

How the results depend on the processing

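Of the counts of limma calls, 51 of 64 alternatives stayed within 1.5 times the reported count. With at least 20 IP and 10 input reads, limma called 62 of 283 genes tested in the cytoplasm (arsenic minus untreated). For untreated cytoplasm minus whole cell it called 18 of 96, and for arsenic cytoplasm minus whole cell 1 of 313. It called 2 of 38 for the arsenic effect in cytoplasm minus that in whole cells. For CAPRIN minus G3BP1 it called 21 of 63, against 111 of 367 in the main fit, which called none in the other comparisons. A variance that follows mean enrichment gave 112 of 669 for the cytoplasm and 3 of 527 for arsenic cytoplasm minus whole cell. The mean over a gene's windows gave 30 of 686 for the cytoplasm. Leaving out a replicate value gave 0 to 381 calls in the cytoplasm, 0 to 4 in whole cells, 0 to 64 for the difference between fractions and 25 to 160 for CAPRIN minus G3BP1. For the extremes, the value left out was the lower one of arsenic cytoplasm (381 and 64), the lower one of arsenic whole cells (4), and the lower one of CAPRIN (25) or of G3BP1 (160). The causes were not tested.

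Most member differences that changed sign were small against their errors. In whole cells, arsenic minus untreated, leaving out a replicate value gave -0.043 to 0.64 in CALR, -0.78 to 0.31 in CANX, -0.44 to 1.85 in HSPA5, -1.30 to 1.44 in MANF, -0.91 to 0.84 in P4HB, -0.44 to 0.95 in PDIA4 and -0.50 to 1.19 in XBP1. The mean over a gene's windows gave 0.14 in CANX, -0.057 in HSP90B1, -0.43 in MANF, -0.073 in PDIA3 and -0.16 in XBP1. Removal of the median gave -0.027 in MANF, the read minimum gave -0.80 in PDIA3, and a q under 0.05 gave 0.50 in PRKCSH. For arsenic cytoplasm minus whole cell, removal of the median gave -0.11 in CALR, -0.44 in CANX, -0.58 in P4HB and -0.20 in PRKCSH, and leaving out a value gave -0.20 to 1.65 in P4HB. For untreated cytoplasm minus whole cell, it gave -0.98 to 0.49 in HSPA5.

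With the read minimum, the members' windows numbered 40 in arsenic cytoplasm, 3 (in 2 genes) in untreated cytoplasm, 33 in arsenic whole cells, 64 in untreated whole cells, 5 (in 2 genes) for CAPRIN and 2 (in 1 gene) for G3BP1. At that minimum, 3′ UTRs were 100% in untreated cytoplasm, CAPRIN and G3BP1, coding windows were 45.5% and splice-site introns 15.2% in arsenic whole cells, and 53.1% and 14.1% in untreated whole cells. With a lowest q under 0.05 no member window was left in untreated cytoplasm (0 genes, 0 windows), and the G3BP1 windows were 100% 3′ UTR. With lists cut to equal length, 22 windows were left in arsenic cytoplasm and 1 window in 1 gene for CAPRIN (100% 3′ UTR), and splice-site introns were 47.5% in untreated whole cells. By IP reads in place of windows, coding sequence was 23.2% there. No paired analysis was possible because the lists give the lowest and highest replicate without replicate numbers. The median input of the member windows was 3 reads in untreated cytoplasm, 3 in arsenic whole cells and 4 in untreated whole cells. IP reads scaled to all windows of each list, an alternative added after the data were seen, turned PDIA3 in whole cells to 1.17.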
